A study of Mus musculus with 6 samples.

Results

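The genes described here encode the invariant chains of the T cell receptor (TCR) complex and the proteins that first carry its signal: Cd3e, Cd3d, Cd3g, Cd247, Lck, Fyn, Zap70, Lat and Lcp2. They were chosen by symbol, as the rows of the gene and transcript tables whose Ensembl identifier, without its version, belongs to these symbols. All 9 were found among the 52550 genes listed, with 50 of the 131146 transcripts listed. RNA was sequenced from wild-type mouse splenic CD3+ T cells 24 h after activation with anti-CD3/CD28 activators, in 3 libraries without a compound (TCR alone) and 3 with the compound at 100 ng/ml (TCR+DMGV). DMGV is dimethylguanidino valeric acid, a small metabolite, and the labels give it as the agent. The study's text instead describes sequencing of cells treated with LNY1, a factor purified from conditioned medium, also at 100 ng/ml. The paper takes LNY1 to be asymmetric and symmetric dimethylarginine, from which cells make DMGV. The group name TCR+DMGV follows the labels. Every library came from activated cells, so the levels below have no resting cells to be set against. The activator itself binds the CD3 chains. The age and strain of the mice behind these libraries are not given in the labels. The libraries of a group are labelled biological replicates, without saying whether they came from separate animals.

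The alpha and beta chains of the TCR recognize antigen but have almost no cytoplasmic tail, so the signal passes through the CD3 epsilon, delta and gamma chains and the zeta chain made by Cd247, whose tails carry tyrosine motifs. The SRC family kinases Lck and Fyn phosphorylate these motifs, and the doubly phosphorylated motifs dock the kinase ZAP-70. ZAP-70 then phosphorylates the membrane adaptor LAT and the cytosolic adaptor SLP-76, made by Lcp2, on which phospholipase C gamma and the Ras and actin pathways are assembled. In mouse T cells an activated receptor is taken in from the surface and replaced by new chains. The amount of protein, its phosphorylation and its place on the membrane were not measured here.

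Depth was even, from 37758725 to 43718867 counts per library, and the 9 genes had at least 4101 counts in every library (Cd3d in TCR alone replicate 1). TCR alone replicate 3 and TCR+DMGV replicate 1 stood apart from the other 4 libraries on the first principal component, which held 32.2% of the variance (scores 42.1 and 42.9 against -34.9 to -10.5). In these 2 libraries the median log2 deviation of the genes lowest in GC content was -0.38 and -0.27, against 0.08 to 0.27 in the others. The label of T cells held: summed over 12 T cell markers other than the 9 genes, the level was 3792 to 4012 CPM (counts per 1000000, scaled by TMM) in TCR alone and 4083 to 4202 CPM in TCR+DMGV. The 12 B cell markers summed to 35.7 to 38.7 CPM and 36.6 to 38.5 CPM, with Fcrla at 0 in all libraries. The 14 myeloid markers summed to 11.0 to 14.7 CPM and 10.8 to 12.1 CPM, with Cd14 and Cd163 at 0, and none of the 9 neutrophil markers had a count. The 9 dendritic cell markers summed to 71.3 to 91.2 CPM and 82.2 to 98.1 CPM, with Clec9a, Siglech and Cd209a at 0. The 9 NK cell markers, of which Prf1 and Eomes are also made by CD8 T cells, summed to 138 to 153 CPM and 149 to 157 CPM. The 11 erythroid and platelet markers summed to 5.12 to 6.42 CPM and 3.55 to 5.15 CPM.

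None of the 9 genes differed between the groups in edgeR's quasi-likelihood test after Benjamini-Hochberg adjustment over the 14786 genes tested (adjusted p = 0.999 for each). Over all genes the same test called 2, or 0.0135% of those tested. At an unadjusted p under 0.05 it found 0 of the 9, against 471 of all genes, or 3.19%. The fitted log2 fold changes of TCR+DMGV over TCR alone ran from 0.0018 for Lat to 0.26 for Cd3g, with standard errors of 0.062 to 0.16. All 9 were above 0, as were 50.6% of all genes, but those of Lat and Lck fell below 0 under other scalings, of Lat with library size alone and of Lck with the GC trend removed. Their median was 0.13, and that of all tested genes was 0.0024. The upper 95% limits of the log2 fold change reached 0.61 at most, for Cd3g, and the lower limits -0.19, for Cd247. In bulk RNA, fewer T cells in a sample and less of an mRNA per T cell cannot be told apart. The summed T cell markers did not overlap between the groups and were higher in TCR+DMGV. Their part in these differences was not tested.

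**Figure D1:**
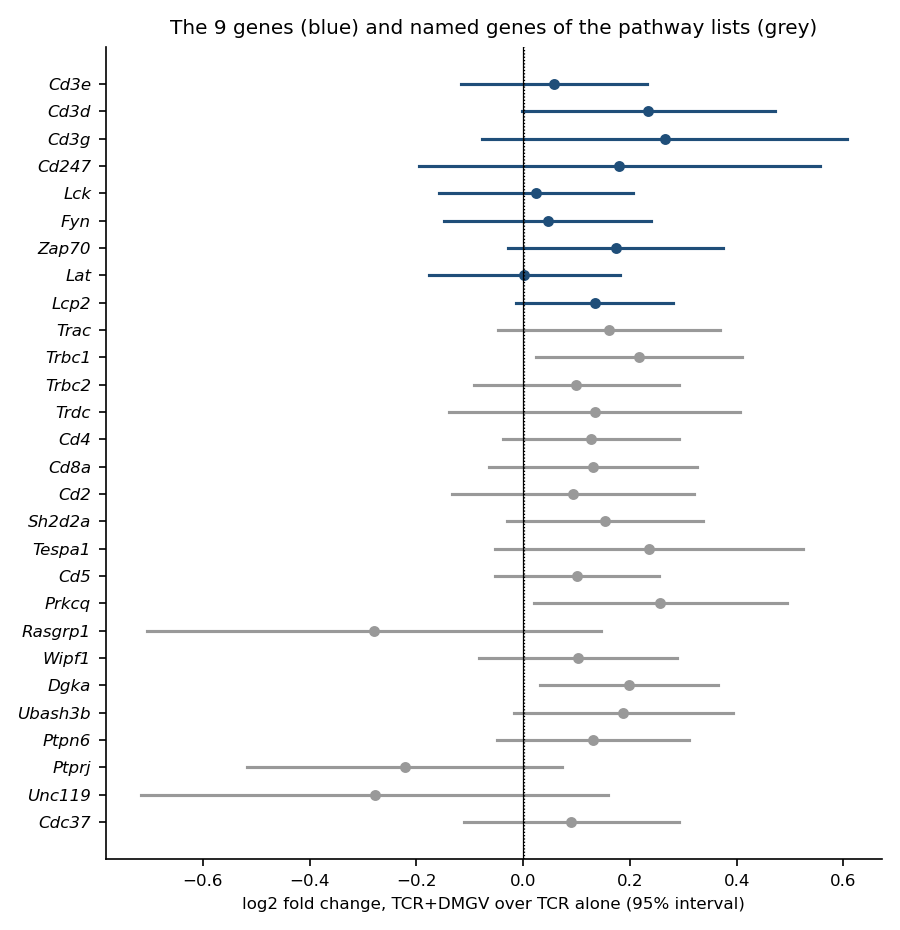
Log2 fold changes of TCR+DMGV over TCR alone on the horizontal axis, with 95% intervals from edgeR's quasi-likelihood fit, for the 9 genes (blue) and the named genes of the pathway lists (grey, without the gamma chain genes). The solid line marks 0 and the dotted line, almost on it, the median of all tested genes (0.0024), and the interval of each of the 9 genes includes 0.

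Per length, as the deposited FPKM values give it, Lck was the most abundant of the 9 in every library, at 168 to 196 FPKM. Lcp2 followed at 114 to 132 FPKM, Zap70 at 94.0 to 118 FPKM and Lat at 99.7 to 116 FPKM. Zap70 was below Lat in all 3 TCR alone libraries (94.0 against 99.7, 101.3 against 101.8 and 115.8 against 116.1 FPKM) and above it in all 3 TCR+DMGV libraries (117.8 against 109.5, 112.7 against 105.2 and 116.3 against 99.8 FPKM). The values in TCR alone were close, and this switch of order was seen in FPKM only and was not tested. By read count, without length, Zap70 was above Lat in every library. In TCR alone it was at 313, 347 and 380 CPM, against 307, 323 and 352 CPM for Lat. The CD3 chains lay together, Cd3g at 61.0 to 98.2 FPKM, Cd3e at 59.6 to 67.6 FPKM and Cd3d at 53.4 to 75.2 FPKM. Fyn stood at 50.05 to 59.6 FPKM and Cd247 was lowest, at 37.9 to 60.8 FPKM. The ranges of neighbours overlapped everywhere in this order except between Lck and Lcp2 and between Lat and Cd3g. The mean level of Lck was 3.79 times that of Cd247, and even Cd247 was above 95.2% of the genes with a count.

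**Figure D2:**
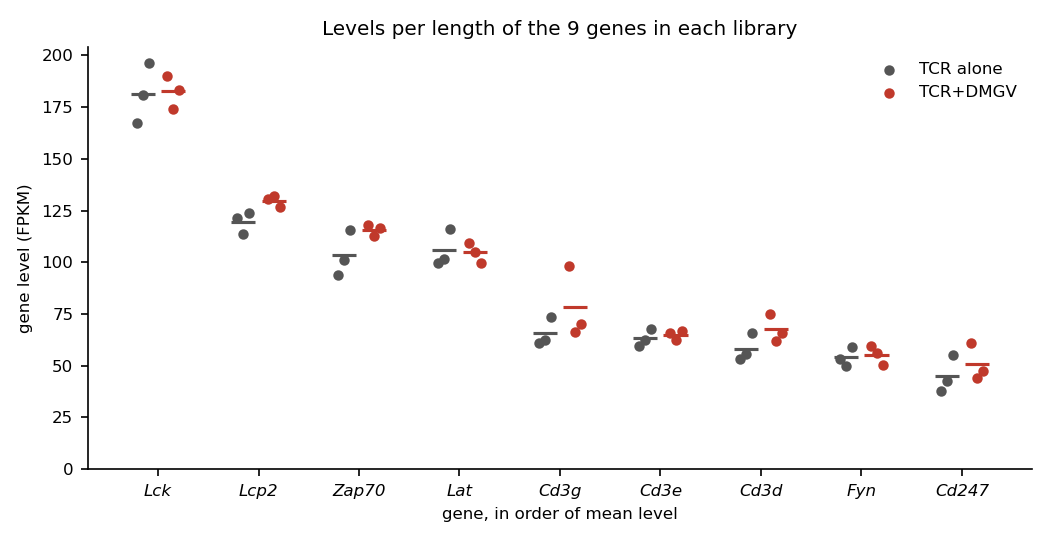
Levels of the 9 genes per length (FPKM, vertical axis) in the 3 TCR alone and 3 TCR+DMGV libraries, each point a library and each bar a group mean, in order of the mean level. Lck stands highest, at 168 to 196 FPKM, and Cd247 lowest, at 37.9 to 60.8 FPKM.

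The 3 CD3 genes lie side by side on chromosome 9 (GRCm38, GENCODE M21). Cd3e is at chr9:44998740-45009627 on the minus strand, Cd3d at chr9:44981786-44987339 on the plus strand and Cd3g at chr9:44969572-44980431 on the minus strand. Cd3g and Cd3d run head to head, with 1355 bases between their starts. Of the 12 RefSeq promoter windows of the 9 genes (GRCm38.p6, 250 bases before the start), 5 held the letters CAGGAAG or CTTCCTG, a core bound by ETS family factors, in Cd3e, Cd247, Zap70 and both windows of Lck. Of all 32817 windows of that length, 10.8% held it, and the motif was picked after these windows had been read. The windows of Cd3d and Cd3g did not hold these letters. The Cd3e window, at chr9:45009612-45009861 on the minus strand, is printed because it is the only window of the 3 CD3 genes with the motif (in capitals). The motif begins 17 bases before the RefSeq start. Cd3e starts at chr9:45009627 in GENCODE, so the last bases of this window, with most of the motif, lie inside the annotated gene.

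Cd3e promoter: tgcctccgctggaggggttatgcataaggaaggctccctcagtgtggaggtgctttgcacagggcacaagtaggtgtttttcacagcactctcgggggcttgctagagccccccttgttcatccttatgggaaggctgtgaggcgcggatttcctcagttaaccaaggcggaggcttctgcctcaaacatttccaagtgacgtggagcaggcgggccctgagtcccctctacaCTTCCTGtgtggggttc

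Cd3e makes CD3 epsilon, the chain that pairs with both delta and gamma and that the anti-CD3 antibody commonly binds. Its normalized read count was 271, 291 and 303 CPM in TCR alone replicates 1 to 3 and 296, 291 and 313 CPM in TCR+DMGV replicates 1 to 3. The groups overlapped, and the highest library was only 1.16 times the lowest. Its log2 fold change was 0.06 ± 0.07 (SE), with a 95% interval of -0.12 to 0.23. An antisense gene, Gm48719, lies inside Cd3e with 536 to 747 counts, against 10284 to 13167 for Cd3e, and the counting is not stated to use strand, so a part of these reads cannot be told apart.

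Cd3d makes CD3 delta. It was at 108, 115 and 131 CPM in TCR alone and at 150, 129 and 138 CPM in TCR+DMGV. Of the TCR+DMGV libraries only replicate 2 lay below the highest TCR alone library. The log2 fold change was 0.23 ± 0.10 (95% interval -0.0027 to 0.47), with the smallest unadjusted p of the 9 genes, 0.052, in edgeR's quasi-likelihood test (adjusted p = 0.999). Cd3g makes CD3 gamma and was at 222, 234 and 264 CPM in TCR alone and at 354, 248 and 264 CPM in TCR+DMGV. TCR+DMGV replicate 1, which stood apart on the first component, carried the difference. With this library the log2 fold change was 0.26 ± 0.15 (95% interval -0.08 to 0.61) and without it 0.09. Cd3g has the lowest GC content of the 9 genes in its longest transcript, 38.5%. That transcript, Cd3g-202, has a retained intron and took only 0.41% to 0.98% of the gene's count. GC content was taken from the longest transcript for every gene. This is a minor transcript in Cd3e (Cd3e-202, at most 2.43% of the count), Lat (Lat-202, 1.56%) and Cd247 (Cd247-209, 2.53%) too. With the GC trend removed the log2 fold change of Cd3g was 0.33. The part of GC content in this difference was not tested.

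Cd247, at chr1:165788681-165877277 on the plus strand, makes the zeta chain, which forms a homodimer with 3 tyrosine motifs in each tail. It had the widest spread of the 9 genes with Cd3g, a highest library of 1.59 times the lowest for each. Its level was 225, 259 and 324 CPM in TCR alone and 357, 267 and 291 CPM in TCR+DMGV. The highest library of each group was the one that stood apart on the first component, TCR alone replicate 3 and TCR+DMGV replicate 1. The log2 fold change was 0.18 ± 0.16 (95% interval -0.19 to 0.56), fell to 0.05 without TCR+DMGV replicate 1 or without TCR alone replicate 1, and stood at 0.34 without TCR alone replicate 3. Without both libraries that stood apart it was 0.21.

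**Figure D3:**
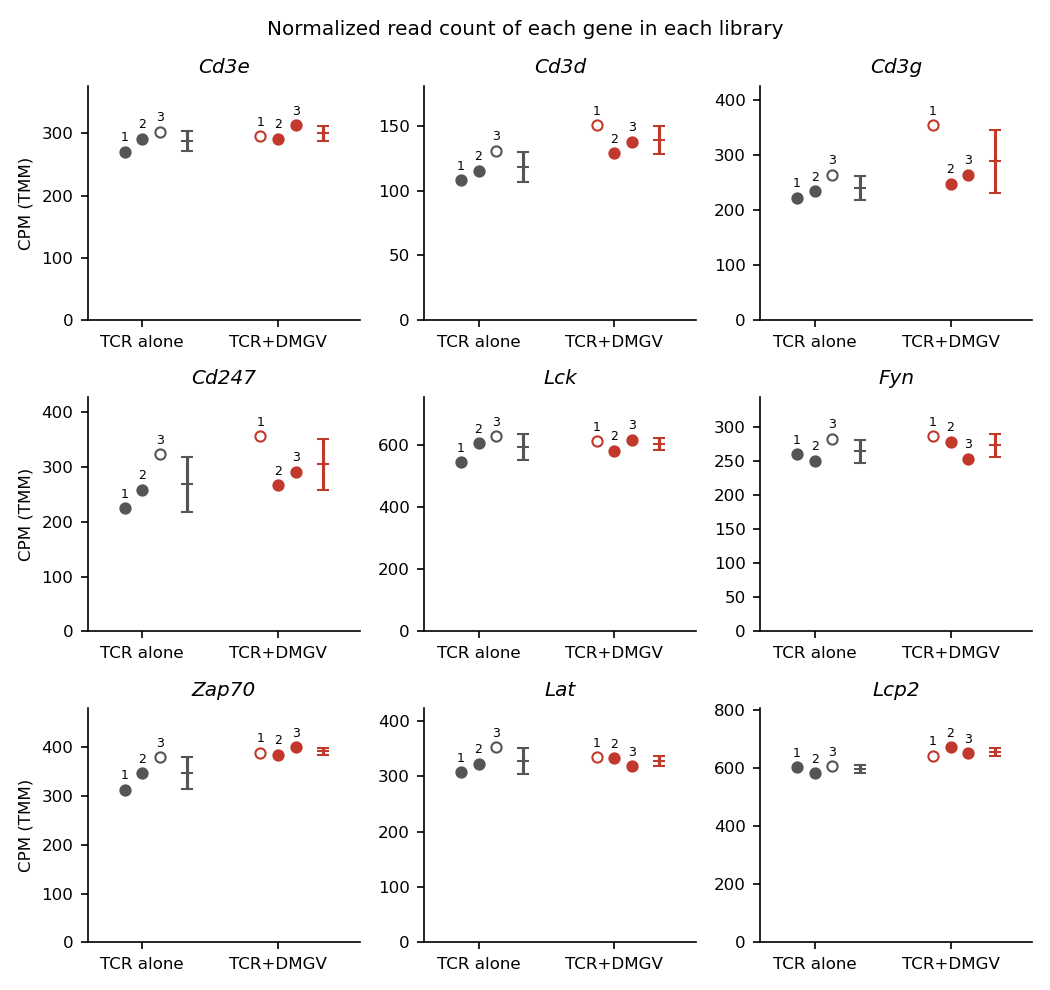
Normalized read count (CPM, scaled by TMM, vertical axis from 0) of each of the 9 genes in the 3 TCR alone (grey) and 3 TCR+DMGV (red) libraries, numbered by replicate, with the group mean and SD beside the points. Open circles are the 2 libraries that stood apart on the first principal component, and only for Zap70 and Lcp2 do all red points lie above all grey points.

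Lck, at chr4:129548344-129573641 on the minus strand, makes the kinase bound to the CD4 and CD8 coreceptors. It was at 547, 607 and 630 CPM in TCR alone and at 613, 583 and 618 CPM in TCR+DMGV, and all 3 TCR+DMGV libraries lay inside the range of TCR alone. Its log2 fold change was 0.02 ± 0.08, with a 95% interval of -0.16 to 0.21. Fyn, at chr10:39368855-39565381 on the plus strand, makes the other SRC family kinase of T cells, which associates with the receptor chains themselves. It was at 260, 250 and 283 CPM in TCR alone and at 287, 279 and 253 CPM in TCR+DMGV. The groups overlapped, and the log2 fold change was 0.05 ± 0.08, with a 95% interval of -0.15 to 0.24 and values of 0.0045 to 0.10 when any library was left out.

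Zap70, at chr1:36761798-36782818 on the plus strand, was the only one of the 3 kinase genes whose groups did not overlap. It was at 313, 347 and 380 CPM in TCR alone and at 389, 385 and 400 CPM in TCR+DMGV. That gave a log2 fold change of 0.17 ± 0.09 (95% interval -0.03 to 0.37, edgeR's quasi-likelihood test, unadjusted p = 0.081, adjusted p = 0.999). TCR alone replicate 1 was lowest, and without it the log2 fold change was 0.09.

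Among the adaptors, Lcp2 did not overlap between the groups either. Lcp2 lies at chr11:34046920-34092295 on the plus strand. It was at 602, 582 and 606 CPM in TCR alone and at 642, 671 and 650 CPM in TCR+DMGV. The spread within each group was small (SD 13.2 CPM and 15.1 CPM, n = 3), and the log2 fold change of 0.13 ± 0.06 (95% interval -0.01 to 0.28) stayed between 0.11 and 0.15 when any library was left out. It missed the threshold all the same (edgeR's quasi-likelihood test, unadjusted p = 0.068, adjusted p = 0.999). So 2 of the 9 genes were higher in all TCR+DMGV libraries than in any TCR alone library and 0 were lower in all, against 727 genes, or 4.92% of those tested, that were higher in this way and 583, or 3.94%, that were lower.

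Lat, at chr7:126363824-126369570 on the minus strand, had the smallest difference of the 9. It was at 307, 323 and 352 CPM in TCR alone and at 334, 332 and 318 CPM in TCR+DMGV. The group means were 327 ± 23.0 CPM and 328 ± 8.91 CPM (SD, n = 3 each). The log2 fold change was 0.0018 ± 0.08, with a 95% interval of -0.18 to 0.18.

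The levels of the 9 genes also differed between libraries of the same group. TCR alone replicate 1 was the lowest library for 7 of them and TCR alone replicate 2 for the other 2. TCR+DMGV replicate 1 was the highest for 4, and all 9 lay above their 6-library mean there. In TCR alone replicate 3, 8 of the 9 lay above it, against 0 in TCR alone replicate 1 and 1 in TCR alone replicate 2. The counts in TCR+DMGV replicates 2 and 3 were 5 and 7. The median log2 deviation of the 9 from their 6-library means was -0.13, -0.10 and 0.05 in TCR alone and 0.08, 0.01 and 0.05 in TCR+DMGV. The libraries of both groups thus overlapped in this measure too, with TCR alone replicate 3 among those of TCR+DMGV.

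The genes outside the 9 whose log2 deviations lay nearest to the mean deviation of the 9 over the 6 libraries were Klhdc9, Eef1g and Rae1, at a root mean square difference of 0.020, 0.021 and 0.023. Eef1g, a translation elongation factor subunit, was at 2046, 2187 and 2419 CPM in TCR alone and at 2475, 2244 and 2323 CPM in TCR+DMGV. Rae1, an mRNA export factor, was at 173, 181 and 199 CPM and at 209, 189 and 189 CPM. Klhdc9 was far less abundant, at 5.90 to 7.41 CPM.

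The balance within the complex can be read without scaling between libraries, as the ratio of 2 FPKM values of the same library. Zap70 over Lck was 0.561, 0.560 and 0.590 in TCR alone and 0.620, 0.646 and 0.634 in TCR+DMGV, with no overlap. The difference in log2 ratio was 0.15, and the two-sided exact permutation test gave p = 0.1, the smallest that 3 against 3 allows, or 0.4 adjusted over the 4 ratios compared. Lck over Fyn was 3.14, 3.61 and 3.32 in TCR alone and 3.19, 3.12 and 3.64 in TCR+DMGV (exact permutation p = 0.9, adjusted 1.0). These ranges were almost the same in both groups. Cd247 over Cd3e was 0.636, 0.681 and 0.819 in TCR alone and 0.924, 0.702 and 0.712 in TCR+DMGV (exact permutation p = 0.5, adjusted 1.0), and was highest in the library of each group that stood apart. Cd3g over Cd3d was 1.14, 1.13 and 1.12 in TCR alone and 1.31, 1.07 and 1.07 in TCR+DMGV (exact permutation p = 1.0, adjusted 1.0), so TCR+DMGV replicate 1 stood above and the other two below all TCR alone libraries.

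The transcript table splits each gene's count over its annotated transcripts, and for all 9 genes the transcript counts summed to the gene count. Of their 50 transcripts 49 had a count, and 36 passed the filter on low counts. None passed edgeR's quasi-likelihood test after adjustment (adjusted p = 1.00 for each), nor did any of the 38401 transcripts tested (0%). DESeq2 called 400 of 68434 transcripts, none of them of the 9 genes. At an unadjusted p under 0.05 there were 2 of the 36, against 3.22% of all transcripts tested. In 6 of the genes the most abundant transcript took nearly the whole count in every library: Cd3d-201 (99.8% to 99.96%), Cd3g-201 (98.4% to 99.1%), Cd3e-201 (97.5% to 98.3%), Zap70-201 (98.3% to 99.6%), Lcp2-201 (98.1% to 99.6%) and Lat-201 (89.2% to 91.5%). Lcp2-201 was among these 2, with a log2 fold change of 0.13 ± 0.05 (edgeR's quasi-likelihood test, unadjusted p = 0.039, adjusted p = 1.00). The remaining 3 genes, Fyn, Lck and Cd247, divided their counts over several transcripts, and the division differed between libraries of one group.

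Fyn has a pair of mutually exclusive coding exons at the junction of the SH2 and kinase domains. One gives the FynT form of T cells and the other the FynB form, best known from brain. The FynT exon is 156 bases at chr10:39529919-39530074 and the FynB exon 165 bases at chr10:39529437-39529601, both on the plus strand (GRCm38, GENCODE M21). They are printed because they set the forms apart. Reads over the exons themselves were not counted. The shares below come from the counts assigned to whole transcripts, and how well that assignment separates the forms was not tested. The longest unbroken runs of bases the exons share are 2 runs of 7 letters, of which the first in the FynT exon is in capitals. The exons were not aligned.

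FynT exon: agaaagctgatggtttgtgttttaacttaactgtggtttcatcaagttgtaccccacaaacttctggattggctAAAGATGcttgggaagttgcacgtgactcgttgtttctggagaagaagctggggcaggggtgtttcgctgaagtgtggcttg
FynB exon: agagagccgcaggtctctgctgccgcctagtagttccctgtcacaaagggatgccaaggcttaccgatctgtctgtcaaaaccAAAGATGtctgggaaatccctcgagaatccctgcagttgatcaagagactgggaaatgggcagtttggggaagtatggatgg

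The transcript with the FynB exon, Fyn-202, took 20.4%, 22.5% and 38.3% of the gene's count in TCR alone and 61.2%, 9.30% and 19.3% in TCR+DMGV. Its share was highest in the library of each group that stood apart on the first component, TCR alone replicate 3 and TCR+DMGV replicate 1. The group means were 27.1% ± 9.81 and 29.9% ± 27.5 (SD, n = 3 each), with a two-sided exact permutation p of 1.0, where 0.1 is the smallest possible. The difference of 2.84 percentage points turned to -12.8 without TCR+DMGV replicate 1 and to -7.14 without both libraries that stood apart, and rose to 13.2 without TCR+DMGV replicate 2. The 4 transcripts with the FynT exon took 78.5%, 76.0% and 59.96% in TCR alone and 25.9%, 87.9% and 79.4% in TCR+DMGV. Fyn-206, which has neither exon, took 0.79% to 1.65% in TCR alone and 12.8%, 2.73% and 1.00% in TCR+DMGV.

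Among the FynT transcripts the count was divided between Fyn-205 and Fyn-201, which part in their first exons and in the length of the last. The count of Fyn-205 was 7370, 7430 and 6505 in TCR alone, and 0, 3799 and 7623 in TCR+DMGV. For Fyn-201 it was 270, 234 and 241 in TCR alone, and 2666, 6561 and 256 in TCR+DMGV. TCR+DMGV replicate 3 was like the TCR alone libraries in both transcripts and the other TCR+DMGV libraries were not. For Fyn-201 the log2 fold change was 3.55 ± 1.07, which edgeR's quasi-likelihood test put at an unadjusted p of 0.018 and an adjusted p of 1.00. The gene's total moved by no more than 1.15 times between any 2 libraries.

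Lck is read from distant promoters, a distal one used by mature T cells and a proximal one known mainly from thymocytes. The transcript Lck-202 starts at the distal promoter and Lck-201 and Lck-208 near the proximal one, with 15250 bases between the starts of Lck-202 and Lck-201. The 250 bases before each RefSeq start are printed because they mark where these transcripts part. The distal window is at chr4:129573642-129573891 and the proximal window at chr4:129558373-129558622, both on the minus strand (RefSeq, GRCm38.p6). Lck-201 starts at chr4:129558391 in GENCODE, so the last bases of the proximal window lie inside Lck-201. The capitals mark the ETS core CAGGAAG, which lies 83 and 11 bases before the distal RefSeq start and 115 bases before the proximal RefSeq start.

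Lck distal: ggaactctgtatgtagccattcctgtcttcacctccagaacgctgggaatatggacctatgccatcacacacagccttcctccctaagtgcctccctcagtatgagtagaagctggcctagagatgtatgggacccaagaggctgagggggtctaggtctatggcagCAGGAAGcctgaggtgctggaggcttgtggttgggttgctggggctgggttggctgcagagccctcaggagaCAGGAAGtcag
Lck proximal: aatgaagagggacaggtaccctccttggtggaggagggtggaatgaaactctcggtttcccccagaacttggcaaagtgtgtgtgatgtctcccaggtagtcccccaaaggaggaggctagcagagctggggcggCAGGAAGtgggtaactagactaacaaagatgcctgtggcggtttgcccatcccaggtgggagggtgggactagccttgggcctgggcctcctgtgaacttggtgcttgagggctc

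The distal transcript took 24.4%, 36.8% and 24.7% of the Lck count in TCR alone and 35.0%, 36.9% and 69.9% in TCR+DMGV. TCR+DMGV replicate 3 was far above the other libraries, which overlapped. The group means were 28.6% ± 7.07 and 47.2% ± 19.6 (SD, n = 3 each, two-sided exact permutation p = 0.2, or 0.7 adjusted over the 7 transcript shares compared). The difference of 18.6 percentage points fell to 7.27 without TCR+DMGV replicate 3. In that library Lck-208 had 17 counts, against 7635 to 14651 in the other 5, while Lck-202 had 17118 and the gene total was unremarkable at 24494 counts. A library without the compound shifted too: in TCR alone replicate 1 Lck-201 had 1016 counts, against 6234 to 9429 in the other 5. Lck-201 has 12 exons, and Lck-202 and Lck-208 have 13 each. How many bases set these transcripts apart was not counted, so the split may rest on few bases.

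Cd247 ends in different last exons. The exon at chr1:165861004-165862066 gives the zeta chain and exons further downstream, such as that at chr1:165866655-165867436, give the eta chain and related forms with a longer tail. Transcripts that end in the zeta exon took 82.4%, 90.4% and 89.8% of the count in TCR alone and 90.5%, 61.8% and 83.6% in TCR+DMGV. TCR+DMGV replicate 2 was low and the other libraries overlapped. The group means were 87.6% ± 4.43 and 78.6% ± 14.9 (SD, n = 3 each, two-sided exact permutation p = 0.7, adjusted 0.98). Without TCR+DMGV replicate 2 the difference of -8.92 percentage points was -0.52. The downstream exons overlap Pou2f1 on the other strand (1796 to 2208 counts), and whether its reads entered the Cd247 count cannot be told apart without strand.

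**Figure D4:**
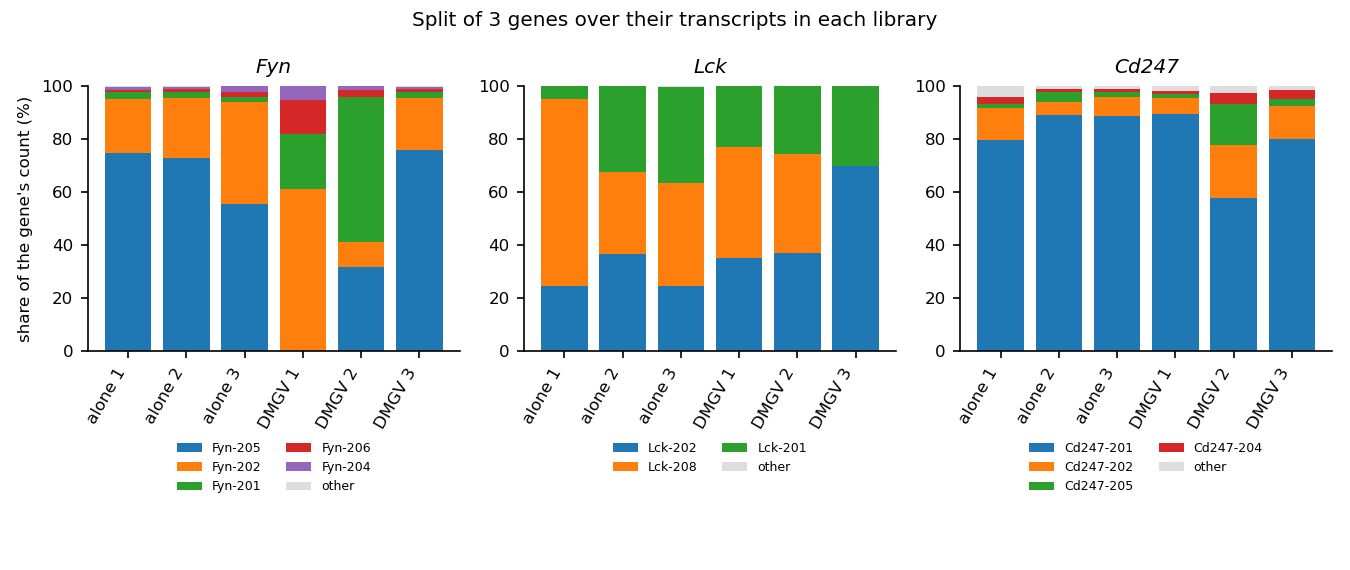
Share of the count of Fyn, Lck and Cd247 (%, vertical axis) assigned to each transcript in the 3 TCR alone and 3 TCR+DMGV libraries, with transcripts under 4% in all libraries summed as other. The split differs most in TCR+DMGV replicate 1 for Fyn (Fyn-205 at 0 counts), in TCR+DMGV replicate 3 for Lck and in TCR+DMGV replicate 2 for Cd247. For Lck it also differs in TCR alone replicate 1, with Lck-201 at 4.89%.

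Transcript use, the split of a gene over its transcripts whatever its total, was tested with edgeR's diffSpliceDGE in the 8 genes with more than a single transcript past the filter, which leaves out Cd3d. None passed (adjusted p = 0.97 for Zap70, with the smallest unadjusted p, 0.14, and 1.00 for Fyn, with 0.17). Over all genes the test called 123 of 7784, or 1.58%. A p that misses the threshold does not bound the change in these transcripts.

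The genes around the 9 in the pathway were taken from 6 lists of 70 genes in all, of which 69 passed the filter and none passed the threshold in either direction (edgeR's quasi-likelihood test, Benjamini-Hochberg adjustment, adjusted p = 0.999 for the lowest). Their median log2 fold change was 0.05, and 47 of 69 lay above 0, against 50.6% of all genes tested. Of the 69, 3 had an unadjusted p under 0.05, all with a positive log2 fold change, against 3.19% of all genes in either direction. By list, 5 of 7 tested constant chain genes lay above 0, 4 of 5 coreceptors and CD28, 14 of 22 proximal enzymes and adaptors, 8 of 12 genes downstream of LAT, 14 of 18 inhibitors and 2 of 5 activators of SRC kinases.

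The chains that recognize antigen share the complex with CD3. Trac, the alpha constant chain, was at 400, 408 and 479 CPM in TCR alone and at 495, 461 and 483 CPM in TCR+DMGV, and overlapped. Trbc1, a beta constant chain, was at 211, 213 and 246 CPM and at 255, 260 and 264 CPM, and did not overlap (log2 fold change 0.22 ± 0.08, edgeR's quasi-likelihood test, unadjusted p = 0.032, adjusted p = 0.999). Trbc2, the other beta constant chain, overlapped, with a log2 fold change of 0.10 ± 0.08. The delta chain gene Trdc was at 16.8 to 21.7 CPM with a log2 fold change of 0.13 ± 0.12. The gamma chain genes Trgc1 and Trgc2, whose near-identical copies make their counts uncertain, and Trgc4 were under 4 CPM in all libraries. Their log2 fold changes were -0.20, -0.08 and 0.26 in that order, and Trgc3 did not pass the filter.

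Of the coreceptors, Cd4 (log2 fold change 0.13 ± 0.07) and Cd8a (0.13 ± 0.08) had values close to each other, as had Cd2, an adhesion receptor (0.09 ± 0.10). Among the proximal adaptors the smallest p belonged to Sh2d2a, which binds Lck (0.15 ± 0.08), Tespa1 (0.24 ± 0.12) and Cd5, a surface inhibitor of the receptor's signal (0.10 ± 0.07). Cd4 and Cd5 did not overlap between the groups and were higher in TCR+DMGV, while Cd8a, Cd2, Sh2d2a and Tespa1 overlapped. Downstream of LAT, Prkcq, which makes protein kinase C theta, was at 147, 140 and 144 CPM in TCR alone and at 165, 154 and 196 CPM in TCR+DMGV. The groups did not overlap (log2 fold change 0.26 ± 0.10, edgeR's quasi-likelihood test, unadjusted p = 0.038, adjusted p = 0.999). Rasgrp1, the Ras activator recruited by diacylglycerol, had a log2 fold change of -0.28 ± 0.18 and Wipf1, a partner of WASP, 0.10 ± 0.08.

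Among the inhibitors, Dgka, which makes the diacylglycerol kinase that ends signals through diacylglycerol, was at 201, 216 and 217 CPM in TCR alone and at 249, 232 and 246 CPM in TCR+DMGV. The groups did not overlap (log2 fold change 0.20 ± 0.07, edgeR's quasi-likelihood test, unadjusted p = 0.026, adjusted p = 0.999). Ubash3b, a phosphatase that acts on ZAP-70, had a log2 fold change of 0.19 ± 0.09 and Ptpn6, which makes SHP-1, 0.13 ± 0.08. Both were higher in TCR+DMGV without overlap, as were 4.92% of all genes tested. Of the genes that act on SRC kinases, the phosphatase gene Ptprj had a log2 fold change of -0.22 ± 0.13, Unc119 of -0.28 ± 0.19 and the cochaperone gene Cdc37 of 0.09 ± 0.08. None of these genes passed the threshold.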

How the data were processed

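RNA libraries of 6 samples were analysed. Reads were filtered with SOAPnuke 1.5.2, mapped with HISAT2 2.0.4 and quantified with StringTie 1.2.3. The deposited counts are unscaled whole numbers for genes and for transcripts, and how they were made from StringTie's output is not given in the sources used here. The deposited FPKM values were scaled by the authors to length and depth. The submitters' processing notes name mm9, but 99.7% of the identifiers match GENCODE M21 (GRCm38), from which symbols and coordinates were taken. Genes were tested in R 4.3.3 with the quasi-likelihood test of edgeR 4.0.16 (TMM, default filter on low counts, two-sided, Benjamini-Hochberg over all tested features, threshold 0.05). Standard errors and intervals of the log2 fold changes were worked back from the F statistic of that test, an approximation. Transcript use was tested with diffSpliceDGE, and ratios and shares with exact permutation tests in scipy 1.17.1. The tests across many genes and transcripts were tried on simulated data, where diffSpliceDGE called unchanged genes more often than its threshold allows and the transcript test missed most changes. DESeq2 1.42.0 and limma 3.58.1 served as alternatives. The named genes are the 9, the TCR constant chains, the 3 genes of smallest p in each other pathway list and the 3 nearest in pattern. The genes, lists and tests were chosen with earlier results of these data known, and the transcript forms and the promoter motif after the values were seen. Whether shared replicate numbers pair the libraries is not stated in the labels, and the main test did not pair them. Values of some single marker genes are not reported here. P-values measure the spread between these libraries. No pair of libraries of a group was as alike as sampling noise would give (median chi-square per gene 3.89 to 8.93, against 0.455).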

Additional observations from a re-analysis of the deposited data

How the results depend on the processing

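None of the 9 genes, of their transcripts or of their transcript splits passed the threshold in any setting tried, and their adjusted p was 0.65 or more for genes, 0.082 or more for transcripts and 0.13 or more for transcript use. The count of genes called, 2, became 14 with DESeq2, 1 with library size alone, 1 with all genes with a count, 0 with limma on log2(FPKM + 1) and 0 on log2(FPKM + 0.1), 12 without the 2 libraries that stood apart, and 0 to 5 with a library left out. With limma on log2(FPKM + 1), 517 genes had an unadjusted p under 0.05. The causes were not tested. With the replicate number as a block it was 0 (340 genes at an unadjusted p under 0.05), and 0 with the GC trend removed as well (463). Libraries of the same replicate number correlated at -0.15, 0.12 and -0.15 once group means were removed. The 2 libraries that stood apart, of different numbers, correlated at 0.31, so these values cannot settle whether the libraries were paired. The block changed no call among the 9 genes.

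The log2 fold change of Lat turned to -0.0035 with DESeq2, -0.0047 with RLE, -0.013 with library size alone, -0.012 with limma at either pseudocount and -0.029 with the GC trend removed, with the block (-0.029) or without. That of Lck turned to -0.0028 with the GC trend removed and -0.0021 with the block as well. With a library left out, it ranged from -0.059 to 0.064 for Lat, -0.050 to 0.074 for Lck and -0.0026 to 0.10 for Cd3e. The other 6 genes kept their sign. The difference in log2 ratio of Lck over Fyn (-0.02) became 0.00028, and that of Cd3g over Cd3d (0.01) -0.089, without the 2 libraries that stood apart, a setting added after seeing the data. With a library left out these ranged from -0.088 to 0.035 and from -0.083 to 0.064, and Cd247 over Cd3e from -0.0013 to 0.23. Zap70 over Lck ranged from 0.14 to 0.18 with a library left out and was 0.19 without the 2 that stood apart.

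In edgeR's quasi-likelihood test, members had an unadjusted p under 0.05 in 4 settings. Without TCR alone replicate 3 these were Cd3d, Zap70 and Cd247 (adjusted p = 0.65), with 1109 of 15191 genes under 0.05. Without the 2 libraries that stood apart they were Cd3d and Zap70 (adjusted p = 0.73), with 972 of 14888 genes. Cd3d was the only member with the GC trend removed, with 577 of 14786 genes. The same held without TCR+DMGV replicate 2, with 395 of 15192 genes (adjusted p = 0.999 for Cd3d in both). How far depth limits these values was not tested.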

Other observations

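None of the 8 activation markers passed the threshold, 2 had a log2 fold change above 0 (Tnfrsf9, 0.13 ± 0.09, and Myc, 0.07 ± 0.08), and their median was -0.03. Il2ra, the alpha chain of the interleukin 2 receptor, was at 1024, 1102 and 958 CPM in TCR alone and at 958, 980 and 951 CPM in TCR+DMGV. Mki67, a gene of dividing cells, was at 509, 443 and 358 CPM in TCR alone and at 297, 321 and 318 CPM in TCR+DMGV, with no overlap. Its log2 fold change was -0.48 ± 0.13 (edgeR's quasi-likelihood test, unadjusted p = 0.0063, adjusted p = 0.999). Tfrc, the transferrin receptor, was at 526, 420 and 222 CPM in TCR alone and at 217, 399 and 395 CPM in TCR+DMGV, so it was lowest in the 2 libraries that stood apart on the first principal component. Cd69 was lowest in the same libraries, at 129 and 119 CPM, against 171 to 177 CPM in the others. Il2ra, Mki67, Tfrc and Cd69, all with a log2 fold change below 0, were chosen after their values were seen.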
